A study of Mus musculus with 2 samples.

Results

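Atf4 and 8 genes of the amino acid branch of the stress response and of the serine one-carbon pathway (Ddit3, Trib3, Asns, Phgdh, Psat1, Psph, Shmt2 and Mthfd2) were described in single cells of mouse gonadal adipose tissue (gWAT). The 9 genes were taken by symbol from the 31054 genes and transgene features of the count matrices. They were selected on their UMI levels in these libraries and cell classes, which had been described before, so the levels between libraries and between cell classes are given as a description without a test.

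The cells came from 18-month-old p16-CreERT2/R26-LSL-tdTomato male mice given tamoxifen. In this model the p16 (Cdkn2a) promoter drives a tamoxifen-dependent Cre, which removes a stop cassette and leaves the cell permanently tomato-positive, so that the label records p16 promoter activity at the time of tamoxifen and not at the time of sorting. CD31- CD45- cells of the stromal vascular fraction were sorted into tomato-positive (Tom+, p16high) and tomato-negative (Tom-) cells, and 1 library of each was made with the 10x Genomics 3′ kit v3.1. The number of mice in each library was not given in the sources used here. Both libraries carried the same alleles, age and treatment, and the comparison of Tom+ with Tom- addresses what p16high adipocyte progenitor cells (APCs) express. With 1 library per group, a difference between libraries cannot be told apart from a difference between the sorts or the preparations, and no p-value can be given. Each interval below is an exact 95% interval that covers counting error only.

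ATF4 is the transcription factor of the integrated stress response. Phosphorylation of eIF2α by stress kinases lowers general translation and at the same time favours translation of the Atf4 mRNA through its upstream open reading frames, so that ATF4 protein can change with little change of its transcript. ATF4 then induces amino acid transporters, asparagine synthetase and the enzymes that make serine from a glycolytic intermediate, while the mitochondrial folate enzymes pass the serine carbon on to one-carbon units used in purine synthesis and redox balance. Preadipocytes and mesothelial cells are both found in the stromal vascular fraction of gWAT, and both were collected by this sort.

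Cells were kept where they had over 1000 but under 7000 detected genes and a mitochondrial share under 8% of their UMIs (unique molecular identifiers, each counting 1 captured transcript). This left 3524 of 5566 Tom+ barcodes and 6717 of 11838 Tom- barcodes, with 56481793 and 90426815 UMIs. Cells with 10 or more UMIs of Msln, Upk3b, Krt19, Lrrn4 and Upk1b together were called mesothelial and those with under 5 stromal, which gave 3263 stromal and 250 mesothelial Tom+ cells, 4800 stromal and 1887 mesothelial Tom- cells, and 11 and 30 cells in between. Markers that the gate did not use mostly followed the names. Krt8 was at 353 and 398 CPM in Tom+ and Tom- mesothelial cells against 1.62 and 3.16 in stromal cells. CPM are UMIs of a gene scaled to a total of 1000000 UMIs. Pdgfra, a receptor that marks APCs, was at 344 and 282 CPM in stromal against 41.9 and 51.4 in mesothelial cells. All 8 mesothelial markers outside the gate were higher in mesothelial cells of both libraries. Their sums were 2940 against 195 CPM in Tom+ and 3094 against 303 in Tom-. Of 8 stromal progenitor markers, 7 were lower there by at least 1.5-fold and 1 was higher within that limit, in both libraries. These summed to 13774 against 29967 CPM in Tom+ and 15419 against 31304 in Tom-. The tdTomato transcript followed the sort, with 211 against 13.1 CPM in stromal cells and 780 against 8.25 in mesothelial cells of Tom+ and Tom-. Cdkn2a itself was at 4.66 CPM in Tom+ and 5.79 in Tom- stromal cells, and at 12.4 and 8.47 in mesothelial cells.

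A total of 2224 barcodes were listed in both libraries, and among the cells kept here 506 in Tom+ and 284 in Tom- carried such a barcode. They were 404 of the Tom+ stromal and 100 of the Tom+ mesothelial cells (40.0% of the latter), and 75 and 207 of the Tom- cells. Only 9 barcodes passed the filters in both libraries, and the copy in the other library held a median of 670 and 665 UMIs. Cells with a shared barcode were deep, with medians of 27827.5 and 32751.5 UMIs against 13571 and 11771 in the others, and values without them are given beside the results they touch. The stromal gate also held cells with very many immunoglobulin UMIs, which are described in their own paragraph. For the members, several values are also given without them, while the lists of related genes include them throughout. Levels are given in CPM, out of all UMIs of that cell class and library. Because the 3′ kit counts transcript ends with a capture that differs from gene to gene, levels are compared between cells and not between genes.

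All 9 genes were detected in all 4 combinations of library and class. Trib3 was under the minimum, a mean of 5 CPM over the groups compared, in each comparison and is given by value only, so that 8 members entered the counts.

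**Figure D1:**
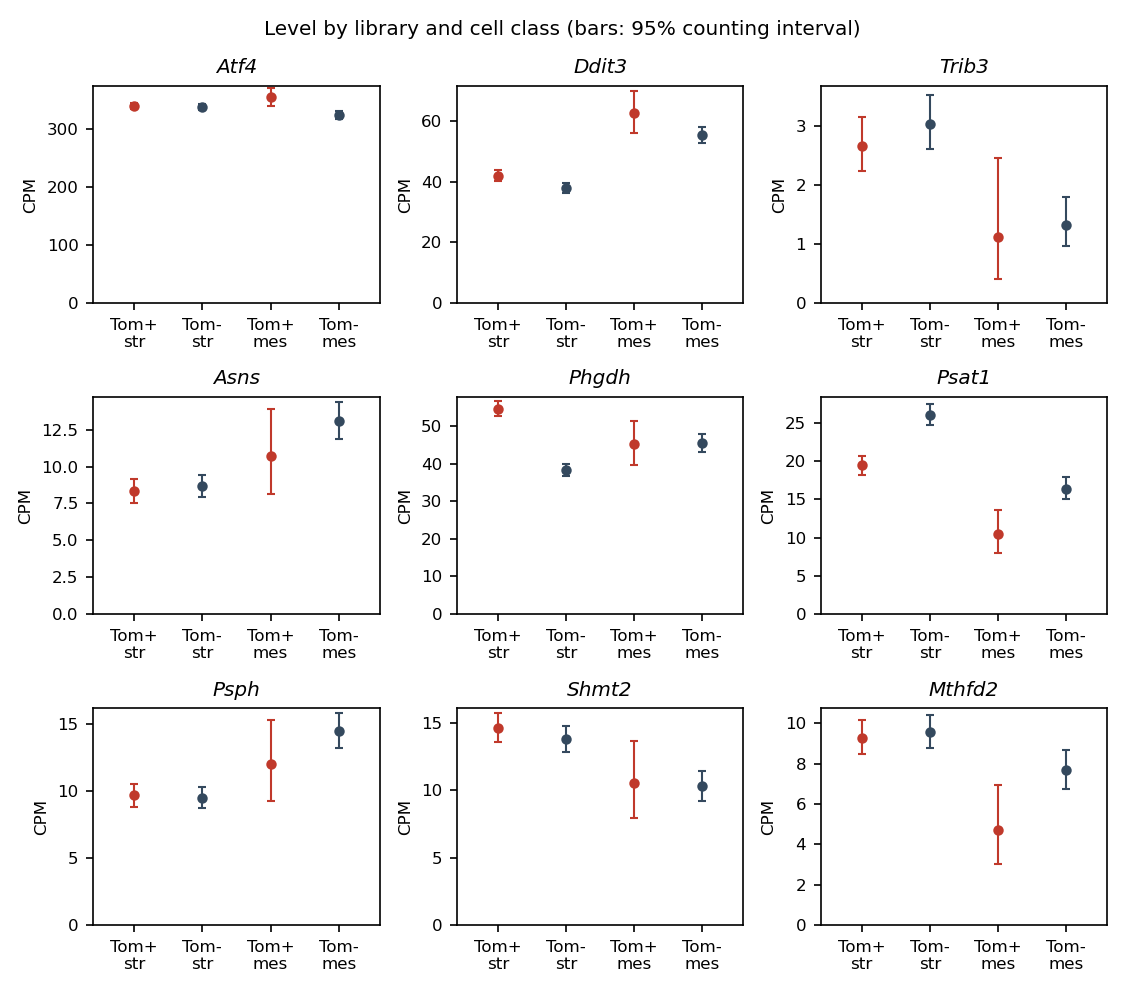
Level of each of the 9 genes (y axis, CPM, each panel with its own axis from 0) in stromal (str) and mesothelial (mes) cells of the Tom+ (red) and Tom- (dark) libraries; points are the level of the pooled cells of 1 library and bars the exact 95% counting interval. Atf4 lies between 324 and 355 in every group, Phgdh is highest in Tom+ stromal cells at 54.6, and Psat1 is highest in Tom- stromal cells at 26.1.

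Atf4 (chr15:80255184-80257541, plus strand, GRCm38) encodes the transcription factor itself. Its level was 339 CPM in Tom+ stromal cells (17311 UMIs, interval 334 to 344), 338 in Tom- stromal cells (19569 UMIs, 333 to 343), 355 in Tom+ mesothelial cells (1889 UMIs, 339 to 371) and 324 in Tom- mesothelial cells (10482 UMIs, 318 to 330). With all cells the 2 stromal values were within each other's intervals, with a log2 ratio of Tom+ over Tom- of 0.00 (-0.03 to 0.03). Without cells rich in immunoglobulin this ratio was 0.07 (0.04 to 0.10), at 359 CPM in Tom+ and 343 in Tom-. Without shared barcodes it was 0.10 (0.07 to 0.14), at 368 and 342 CPM. Mesothelial cells of Tom+ were slightly higher than those of Tom-, with a log2 ratio of 0.13 (0.06 to 0.20). In cells thinned to 5000 UMIs each, 79.9% of Tom+ and 78.8% of Tom- stromal cells held at least 1 Atf4 UMI, and 84.0% and 75.8% of mesothelial cells did, whereas the unthinned shares were 96.3%, 94.1%, 98.8% and 96.3%. None of the sorted classes is known to lack these transcripts, so no class gives a background share for free RNA, whose part in the shares was not tested.

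Ddit3 encodes CHOP, the C/EBP-family factor that ATF4 induces when stress persists (chr10:127290774-127296288, plus strand). It was at 41.9 CPM in Tom+ stromal, 38.0 in Tom- stromal, 62.7 in Tom+ mesothelial and 55.2 in Tom- mesothelial cells. Both mesothelial values were above both stromal values, and the log2 ratio of mesothelial over stromal cells was 0.58 (0.41 to 0.75) in Tom+ and 0.54 (0.45 to 0.63) in Tom-. The library ratio was smaller, with a log2 of 0.14 (0.06 to 0.23) in stromal cells and 0.18 (0.01 to 0.35) in mesothelial cells, where it was 0.03 (-0.24 to 0.30) without shared barcodes. Exons of Mars and Gm4189 overlap Ddit3 on the other strand.

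Trib3 encodes a pseudokinase induced downstream of ATF4 and CHOP that feeds back on both (chr2:152337422-152344032, minus strand). It was at 2.66 CPM (136 UMIs) in Tom+ stromal, 3.04 (176 UMIs) in Tom- stromal, 1.13 (6 UMIs) in Tom+ mesothelial and 1.33 (43 UMIs) in Tom- mesothelial cells. Its order between the classes was thus the opposite of that of Ddit3. The mesothelial over stromal log2 ratio was -1.24 (-2.71 to -0.08) in Tom+ and -1.19 (-1.71 to -0.71) in Tom-. The intervals of the 2 levels overlapped in Tom+ (0.414 to 2.45 against 2.23 to 3.15) and did not in Tom- (0.962 to 1.79 against 2.61 to 3.52).

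The ATF4 and C/EBP composite element has the core TGATGNAA, and its presence was read in windows of 250 bases before to 50 bases after RefSeq starts (GRCm38.p6). All 9 genes matched a window, Psat1 with 2, and the core was searched on both strands. Of 10 windows, 2 held it, against 3.97% of all 32851 windows. Both are printed 5′ to 3′ along the gene with the match in capitals, because they belong to Asns and Trib3, whose ratios between the cell classes had opposite signs.
Asns, chr6:7693214-7693243, minus strand: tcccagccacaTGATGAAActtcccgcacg
Trib3, chr2:152344028-152344057, minus strand: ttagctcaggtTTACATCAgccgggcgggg
The Asns match starts at position -23 from the RefSeq start and lies in exon 1 of the GENCODE annotation. The Trib3 match starts at +15, reads as the core on the other strand and lies in no GENCODE exon. A match in letters is no evidence of a bound site, and the windows of the other 7 genes say only that these letters are not in them.

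Asns encodes asparagine synthetase, which amidates aspartate with nitrogen from glutamine and is a classical target of the amino acid response (chr6:7675169-7693254, minus strand). It was at 8.34 CPM (426 UMIs) in Tom+ stromal, 8.66 (501) in Tom- stromal, 10.7 (57) in Tom+ mesothelial and 13.1 (423) in Tom- mesothelial cells. The mesothelial over stromal log2 ratio was 0.59 (0.40 to 0.78) in Tom-. In Tom+ it was 0.36 with an interval that included 0 (-0.06 to 0.76), 0.59 (-0.13 to 1.23) without shared barcodes, 0.75 (0.31 to 1.16) without cells rich in immunoglobulin, and -0.22 in the cells with a tdTomato UMI. In stromal cells the library ratio was -0.05 (-0.24 to 0.14) with all cells, -0.38 (-0.61 to -0.15) without shared barcodes and -0.32 (-0.54 to -0.11) without cells rich in immunoglobulin, where Asns was at 6.33 CPM in Tom+ and 7.92 in Tom-.

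Phgdh encodes phosphoglycerate dehydrogenase, the enzyme that diverts 3-phosphoglycerate from glycolysis into serine synthesis (chr3:98313170-98339990, minus strand). It was at 54.6 CPM in Tom+ stromal cells (2792 UMIs, interval 52.6 to 56.7) and at 38.3 in Tom- stromal cells (2219 UMIs, 36.8 to 40.0), against 45.3 in Tom+ mesothelial (241 UMIs) and 45.4 in Tom- mesothelial cells (1470 UMIs). The stromal values stood apart and the mesothelial values did not, with log2 ratios of Tom+ over Tom- of 0.51 (0.43 to 0.59) and -0.00. The stromal ratio was 0.37 (0.28 to 0.46) without shared barcodes and 0.41 (0.33 to 0.50) without cells rich in immunoglobulin, at 47.2 CPM in Tom+ and 35.5 in Tom-. The mesothelial over stromal log2 ratio was -0.27 (-0.47 to -0.08) in Tom+ and 0.25 (0.15 to 0.34) in Tom-, a difference of -0.52 (-0.73 to -0.30). Without cells rich in immunoglobulin the classes did not stand apart in Tom+, with a ratio of -0.06 (-0.26 to 0.13), while the Tom- ratio was 0.36, and the difference was -0.42. Without shared barcodes the difference was -0.61. Thinned to 5000 UMIs, 20.4% of Tom+ and 15.2% of Tom- stromal cells held a Phgdh UMI, and 18.8% and 18.7% of mesothelial cells did. The annotation names 1 pseudogene of Phgdh, and reads shared with it would be counted for neither or for one of them.

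Psat1 encodes phosphoserine aminotransferase, which takes the product of PHGDH and transfers nitrogen from glutamate to it (chr19:15904678-15947337, minus strand). It was at 19.4 CPM in Tom+ stromal cells (993 UMIs, interval 18.2 to 20.7), 26.1 in Tom- stromal cells (1509 UMIs, 24.8 to 27.4), 10.5 in Tom+ mesothelial cells (56 UMIs, 7.95 to 13.7) and 16.4 in Tom- mesothelial cells (531 UMIs, 15 to 17.9). Tom+ was the lower library in both classes, opposite to Phgdh in stromal cells, with log2 ratios of -0.42 (-0.54 to -0.31) in stromal and -0.64 (-1.07 to -0.24) in mesothelial cells. Without shared barcodes these were -0.45 and -0.62, and without cells rich in immunoglobulin -0.40 and -0.66. Mesothelial cells were the lower class in both libraries, by a log2 of -0.89 (-1.30 to -0.50) in Tom+ and -0.67 (-0.81 to -0.52) in Tom-.

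Psph encodes phosphoserine phosphatase, the last enzyme of serine synthesis (chr5:129765558-129787449, minus strand). It was at 9.69 CPM in Tom+ stromal, 9.52 in Tom- stromal, 12.0 in Tom+ mesothelial and 14.5 in Tom- mesothelial cells. The mesothelial over stromal log2 ratio was 0.31 (-0.09 to 0.69) in Tom+ and 0.61 (0.43 to 0.79) in Tom-. In Tom-, the enzymes just before and after phosphoserine, Psat1 and Psph, thus had class ratios of opposite sign beyond counting error. In Tom+ the interval of Psph included 0 with all cells. Without cells rich in immunoglobulin the Tom+ ratio of Psph was 0.48 (0.08 to 0.87), and without shared barcodes it was 0.33 (-0.33 to 0.93). An exon of Cct6a overlaps Psph on the other strand.

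Shmt2, the mitochondrial serine hydroxymethyltransferase that splits serine into glycine and a one-carbon unit (chr10:127517123-127522444, minus strand), was at 14.6 CPM in Tom+ stromal, 13.8 in Tom- stromal, 10.5 in Tom+ mesothelial and 10.3 in Tom- mesothelial cells. Mthfd2, the mitochondrial methylenetetrahydrofolate dehydrogenase and cyclohydrolase that oxidises this unit (chr6:83305691-83325908, minus strand), was at 9.28 (474 UMIs), 9.55 (553), 4.70 (25) and 7.66 (248) in the same order. The mesothelial over stromal log2 ratio of Shmt2 was -0.48 (-0.90 to -0.08) in Tom+ and -0.42 (-0.61 to -0.24) in Tom-, and without shared barcodes or without cells rich in immunoglobulin it was -0.30 in Tom+, with intervals that included 0. That of Mthfd2 was -0.98 (-1.62 to -0.40) in Tom+ and -0.32 (-0.54 to -0.10) in Tom-. Both Mthfd2 values were closer to 0 without shared barcodes, at -0.29 (-1.22 to 0.51) and -0.16 (-0.41 to 0.08), and without cells rich in immunoglobulin, at -0.73 (-1.38 to -0.15) and -0.15 (-0.38 to 0.08). The Tom+ mesothelial value of Mthfd2 rested on 25 UMIs, and without shared barcodes its library ratio in mesothelial cells went from -0.71 (-1.36 to -0.11) to -0.41. The related enzymes were counted apart. The cytosolic Shmt1 was at 0.55 CPM in both stromal groups, and Mthfd2l, the other mitochondrial dehydrogenase of this kind, was at 18.8 and 18.3 in stromal and 13.9 and 15.9 in mesothelial cells of Tom+ and Tom-.

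**Figure D2:**
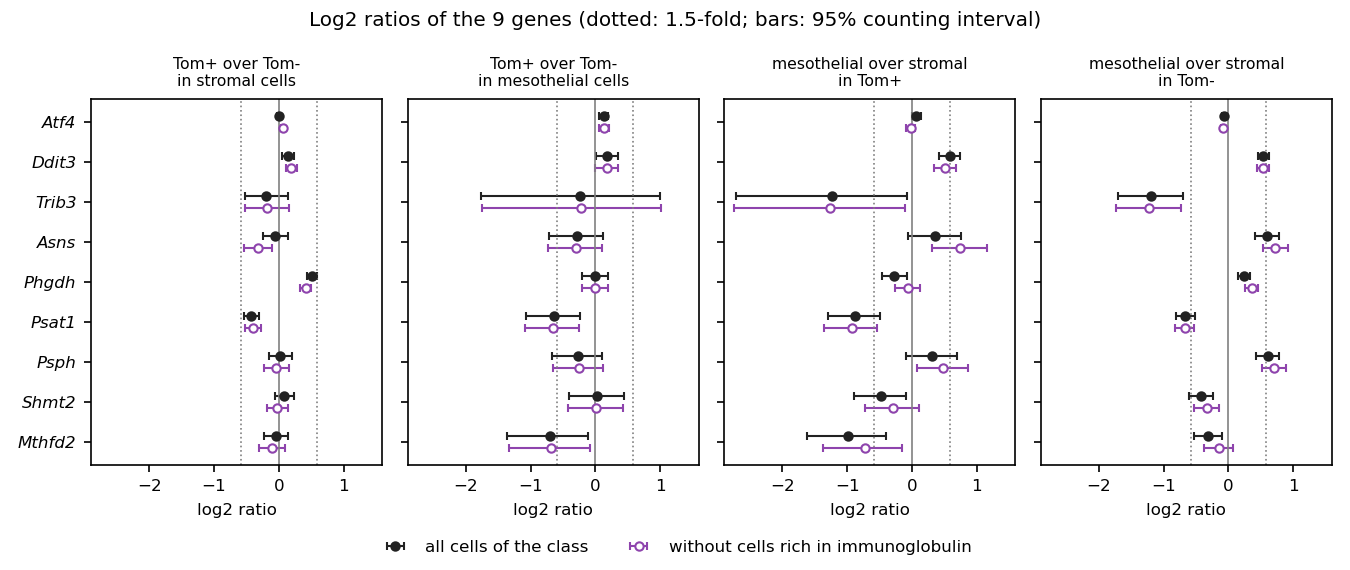
Log2 ratio of each of the 9 genes for Tom+ over Tom- in stromal and mesothelial cells and for mesothelial over stromal cells in each library; filled points are all cells of the class, open points leave out cells rich in immunoglobulin, bars are 95% counting intervals and dotted lines mark 1.5-fold. Phgdh at 0.51 and Psat1 at -0.42 lie on opposite sides of 0 in stromal cells, and Psat1 is below 0 in all 4 panels.

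The 8 members were counted beside all genes with a mean of 5 CPM or more over the groups compared. Over all cells, 0 of 8 members were higher and 0 lower by at least 1.5-fold in Tom+, where 6% of 10026 genes were higher and 7.57% lower. In stromal cells, 0 of 8 members were higher and 0 lower, beside 3.86% and 3.25% of 9778 genes. In mesothelial cells, 0 were higher and 2 (Psat1 and Mthfd2) lower, beside 1.87% and 1.16% of 10014 genes. The median log2 ratio of the 8 members was -0.01, 0.01 and -0.14 in these comparisons, and that of all genes 0.02, 0.07 and 0.03. In stromal cells the member nearest to 1.5-fold, a log2 of 0.58, was Phgdh at 0.51. Between the classes in Tom+, 0 members were higher in mesothelial cells and 2 (Psat1 and Mthfd2) lower, beside 22.6% and 16.2% of 10235 genes, with Ddit3 at 0.58 just inside the limit. In Tom-, 2 were higher (Asns and Psph) and 1 lower (Psat1), beside 21% and 13.9% of 10014 genes. The members' medians were -0.10 and 0.09, and those of all genes 0.11 and 0.14. Since the libraries and classes were in view when the members were proposed, nothing is read from these counts.

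The stromal gate held 149 Tom+ cells (4.57%) and 69 Tom- cells (1.44%) with 100 or more UMIs of the plasma and B cell markers Igkc, Ighm, Jchain, Cd79a, Cd79b and Mzb1. The limit was chosen after the data had been seen. All 6 of these markers were higher in Tom+ than in Tom- stromal cells, with none at 0, and their summed level was 59903 and 14534 CPM. They made up 54.3% of the UMIs of such cells in Tom+ and 39.4% in Tom-, against 0.0677% and 0.0235% in the other stromal cells. The cells were deep, with medians of 37918 and 28548 UMIs, and held 10.9% and 3.63% of all stromal UMIs. Their Pdgfra was at 98.6 and 96.7 CPM against 374 and 289 in the other stromal cells, and Ptprc, which encodes CD45, at 31.4 and 41.0 against 4.66 and 2.03. A shared barcode was carried by 113 of the 149 and 20 of the 69, Scrublet, a doublet caller, marked 0 of them, and what these cells are was not tested.

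In these cells rich in immunoglobulin, 5 of the 8 members were higher by at least 1.5-fold than in the other stromal cells, in both libraries, where 4.08% of 9426 genes in Tom+ and 6.54% of 9349 genes in Tom- were higher. Asns was at 24.7 against 6.33 CPM in Tom+ and at 28.1 against 7.92 in Tom-, log2 ratios of 1.97 (1.66 to 2.27) and 1.83 (1.41 to 2.22). Mthfd2 was at 20.8 against 7.86 and at 39.0 against 8.44, and Phgdh at 115 against 47.2 and at 115 against 35.5. Shmt2 (29.8 against 12.8 and 35.2 against 13.0) and Psph (17.9 against 8.68 and 25.2 against 8.93) were the other enzymes past the limit. Most other genes were lower on a scale where immunoglobulin UMIs take up much of the total, and 85.4% and 66.4% of genes were lower by at least 1.5-fold, and the median log2 ratio of all genes was -1.24 and -0.86. Atf4 was among the lower ones at 173 against 359 (log2 -1.05) and 208 against 343 (-0.72), 0.18 and 0.14 above the median gene. Psat1 was at 15.8 against 19.9 and 23.8 against 26.2, 0.90 and 0.73 above the median gene. Ddit3 was at 26.0 against 43.9 and 28.6 against 38.3, 0.48 and 0.44 above the median gene. Trib3 rested on 11 and 3 UMIs in these cells. Leaving out shared barcodes left 36 and 49 such cells, in which Asns had a log2 ratio of 2.09 (1.23 to 2.84) in Tom+ and 1.62 (0.99 to 2.19) in Tom-, and Phgdh of 0.89 (0.45 to 1.29) and 1.6 (1.32 to 1.88). Psph, Shmt2 and Mthfd2 then rested on 8, 12 and 7 UMIs in Tom+, with ratios of 0.68, 0.70 and 0.75 whose intervals included 0. In Tom- their ratios were 1.45, 1.17 and 2.27. Without shared barcodes Atf4 lay below the median gene, at -0.19 in Tom+ and -0.10 in Tom- from it. Psat1 was then 0.35 and 0.23 above the median gene, and Ddit3 0.37 and 0.32 above it.

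**Figure D3:**
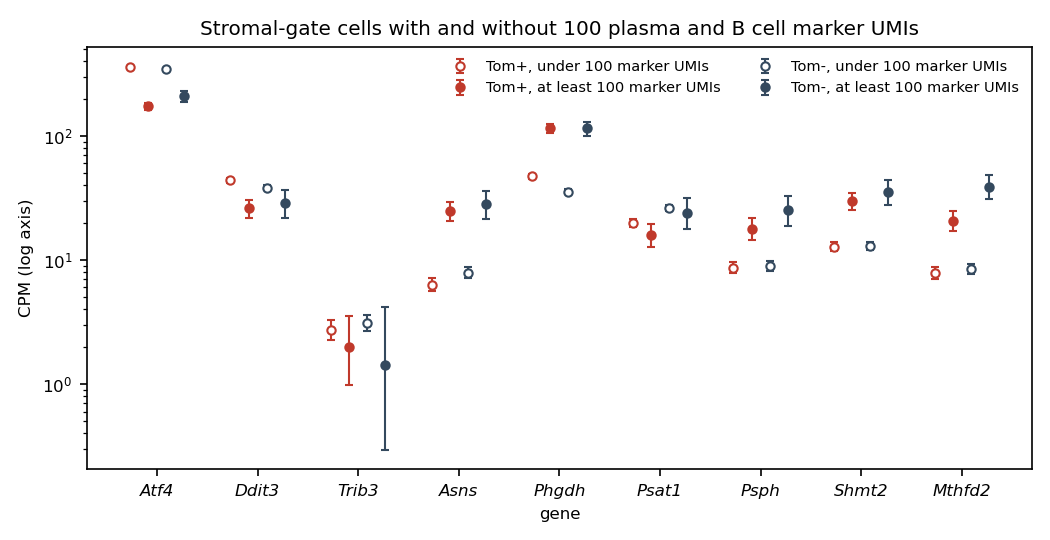
Level of each of the 9 genes (y axis, CPM, log scale) in stromal-gate cells with under 100 (open) and at least 100 (filled) UMIs of 6 plasma and B cell markers, in Tom+ (red) and Tom- (dark), with 95% counting intervals. Asns, Phgdh, Psph, Shmt2 and Mthfd2 are higher in the filled groups of both libraries, and Psat1 lies between 15.8 and 26.2 throughout. Atf4 and Ddit3 are lower in CPM there, as most genes are, but lie above the median gene.

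Stromal cells were also split by markers of early progenitors (at least 3 UMIs of Dpp4 and Pi16) and of preadipocytes (at least 3 UMIs of Pparg, Lpl and Car3 and 0 of the former). The gates count UMIs, so that deeper cells enter the first more readily. They gave 738 and 1404 Tom+ cells and 1052 and 2313 Tom- cells, with 1121 and 1435 cells left over. Psat1 was lower in the Dpp4 and Pi16 cells, at 9.39 against 25.4 CPM in Tom+ and 11.2 against 35.6 in Tom-, log2 ratios of -1.44 (-1.75 to -1.14) and -1.67 (-1.92 to -1.42). Mthfd2 was also lower there, at 4.05 against 10.4 and 5.40 against 10.1, log2 ratios of -1.36 (-1.84 to -0.90) and -0.90 (-1.28 to -0.53). Asns was at 5.08 against 9.46 in Tom+ (log2 -0.90) and at 7.37 against 9.58 in Tom- (-0.38). In all, 0 of 8 members were higher and 3 lower by at least 1.5-fold in Tom+, where 6.04% of 9859 genes were higher and 5.8% lower. In Tom-, 0 were higher and 2 (Psat1 and Mthfd2) lower, where 6.3% of 9584 genes were higher and 6.48% lower. The same genes were called without cells rich in immunoglobulin and without shared barcodes, with Psat1 at -1.48 and -1.74 and at -1.50 and -1.71.

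Atf4 was at 346 in the Dpp4 and Pi16 cells and 340 in the Pparg, Lpl and Car3 cells of Tom+, and at 315 and 349 in Tom-. Phgdh was at 37.5 and 55.1 in Tom+ and at 30.4 and 37.1 in Tom-, Ddit3 had log2 ratios of -0.29 and -0.35, and Shmt2 of -0.29 and 0.02. Trib3 had the opposite order at 4.05 and 2.21 CPM in Tom+ (47 and 49 UMIs) and 4.77 and 2.16 in Tom- (68 and 60 UMIs), log2 ratios of 0.88 and 1.14 (0.62 to 1.67), under the minimum level. Without cells rich in immunoglobulin, Phgdh was higher in Tom+ than in Tom- in each of the 3 sets of cells, at 36.8 against 29.1, 49.2 against 35.6 and 52.9 against 41.1. Psat1 was lower in Tom+ in each, at 9.24 against 10.9, 25.7 against 36.3 and 20.2 against 22.3, with intervals that stood apart only in the Pparg, Lpl and Car3 cells.

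**Figure D4:**
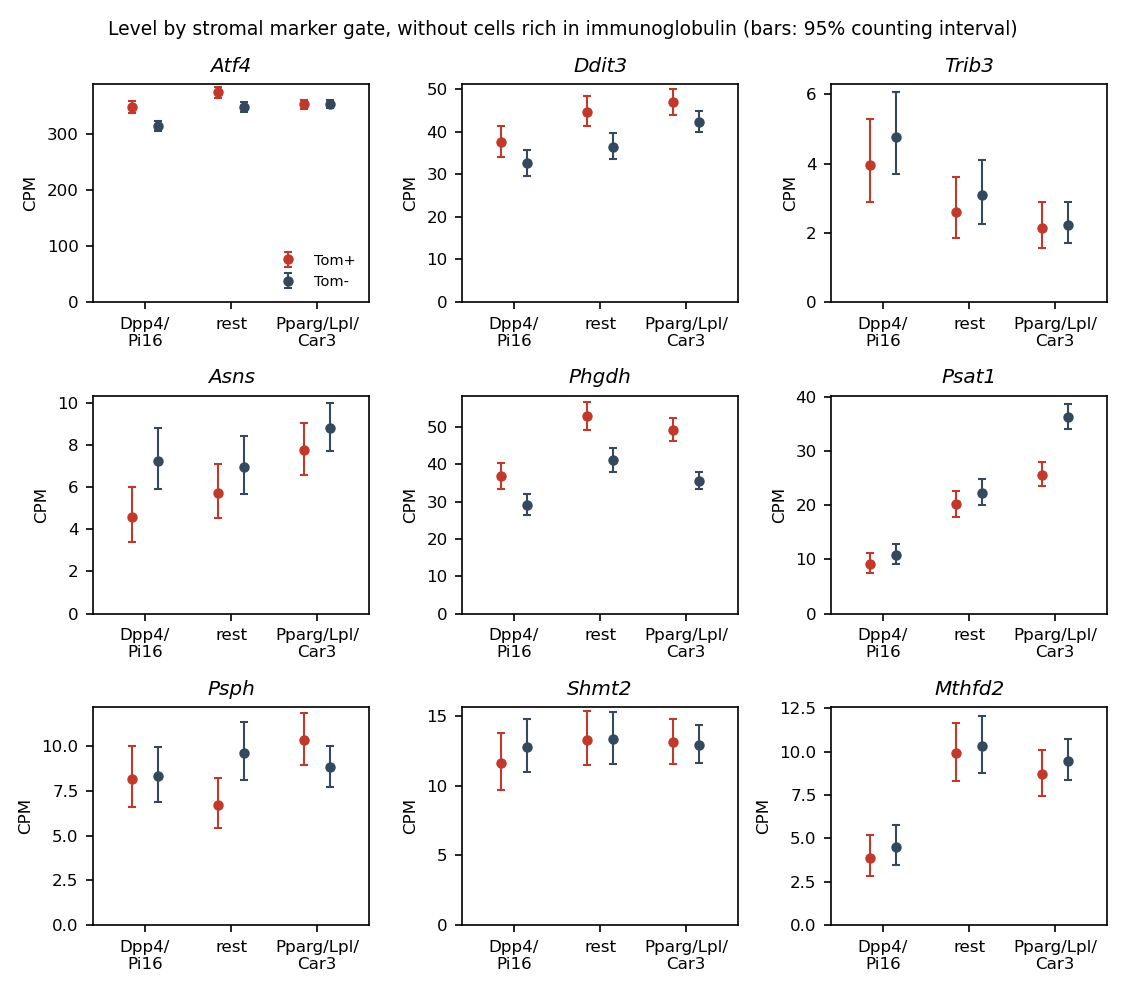
Level of each of the 9 genes (y axis, CPM, each panel with its own axis from 0) in stromal cells of the Dpp4/Pi16 gate, the rest and the Pparg/Lpl/Car3 gate, without cells rich in immunoglobulin, in Tom+ (red) and Tom- (dark) with 95% counting intervals. Psat1 goes from 9.24 to 25.7 in Tom+ and from 10.9 to 36.3 in Tom- between the outer gates, while Atf4 stays between 315 and 375.

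Within the Tom+ stromal cells, thinned to 5000 UMIs each, 2594 cells had no tdTomato UMI, 285 had 1 or 2 and 265 had 3 or more. Asns was at 6.17, 12.6 and 18.1 CPM in these 3 sets (80, 18 and 24 UMIs), Phgdh at 47.0, 47.7 and 69.4, and Shmt2 at 12.9, 17.5 and 22.6. Atf4 went the other way in CPM, at 371, 342 and 321. Its log2 ratio of 3 or more over 0 tdTomato UMIs was -0.21, where the median of 9874 genes was -0.33. Cells rich in immunoglobulin also held more tdTomato, at 637 against 159 CPM in the other Tom+ stromal cells, and without them the sets held 2567, 242 and 188 cells. Then Asns was at 5.84, 11.6 and 10.6, Phgdh at 46.7, 39.7 and 42.6, Shmt2 at 12.9, 18.2 and 11.7, and Atf4 at 373, 369 and 386. The order of the point values of Asns, Phgdh, Shmt2 and Atf4 by tdTomato was thus not the same once those cells were left out. Asns and Shmt2 averaged 0.039 and 0.071 UMIs per thinned Tom+ stromal cell. Their values in the sets of 242 and 188 cells thus rest on few UMIs. Whether the orders differ beyond counting error was not tested. The log2 ratio of 3 or more over 0 tdTomato UMIs was 1.55 with and 0.86 without cells rich in immunoglobulin for Asns. For Mthfd2 it was -0.20 with and -1.69 without them, given without an interval. Mthfd2 averaged 0.034 UMIs per thinned Tom+ stromal cell, so its value in the 188 cells rests on very few UMIs. No change is read from these Mthfd2 ratios. Psat1 was at 20.1, 22.3 and 26.6 without cells rich in immunoglobulin and at 20, 20.4 and 25.7 with them. In Tom+ mesothelial cells the log2 ratio of 3 or more over 0 tdTomato UMIs was -2.71 for Asns, -1.39 for Psat1 and -0.20 for Phgdh. It was -0.11 for Atf4, 0.61 for Shmt2 and 1.20 for Mthfd2. These mesothelial ratios have no interval. Asns and Mthfd2 averaged 0.068 and 0.024 UMIs per thinned cell there, and no order is read from them.

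**Figure D5:**
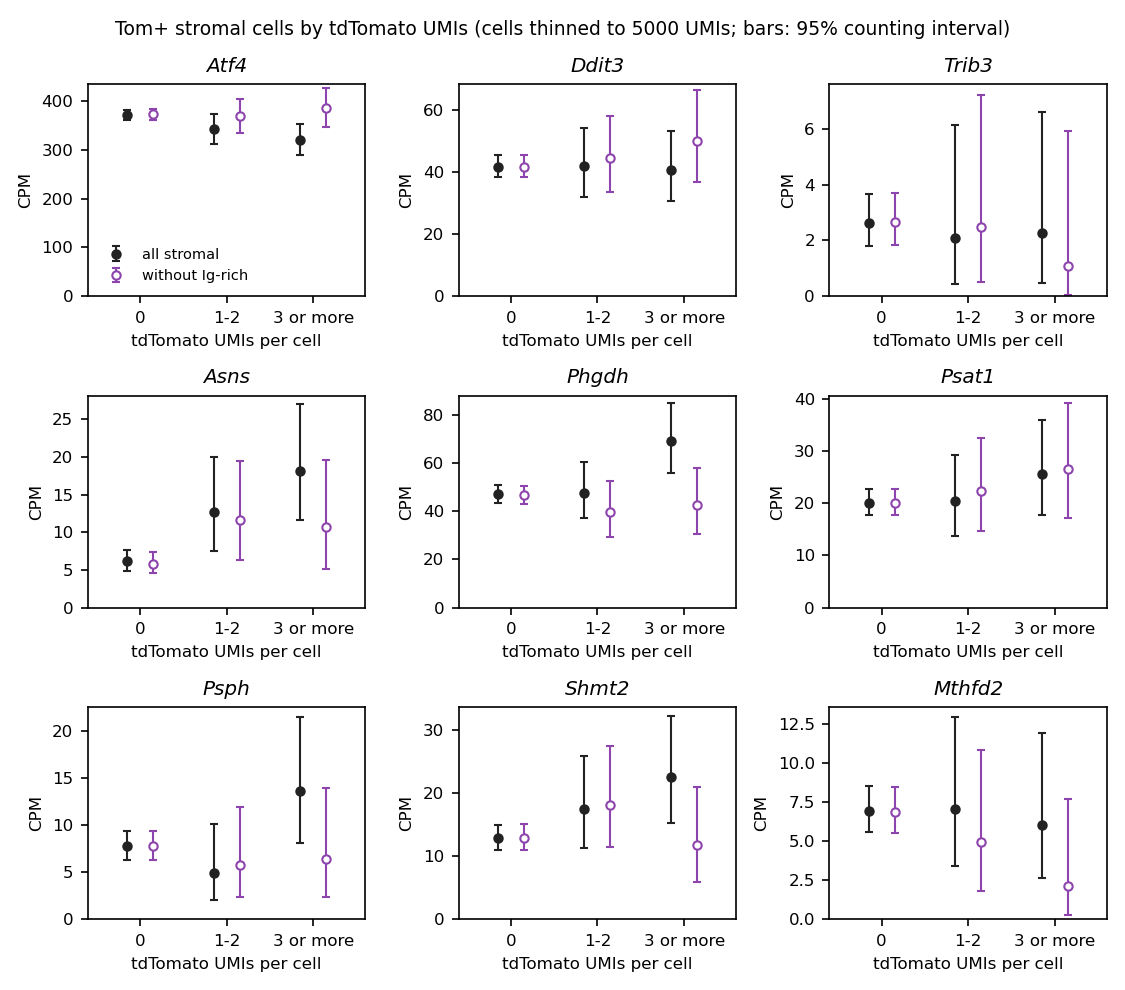
Level of each of the 9 genes (y axis, CPM) in Tom+ stromal cells thinned to 5000 UMIs, by tdTomato UMIs per cell (0, 1 to 2, at least 3); filled points are all stromal cells, open points leave out cells rich in immunoglobulin, and bars are 95% counting intervals. At 3 or more tdTomato UMIs Phgdh is at 69.4 with and 42.6 without these cells.

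From cell to cell the 9 genes were nearly unrelated at this depth. Over the 36 pairs, the median correlation of thinned values was -0.003 in Tom+ stromal, 0.004 in Tom- stromal, -0.024 in Tom+ mesothelial and -0.005 in Tom- mesothelial cells, and the highest in stromal cells was 0.078 and 0.045. These values share the depth of sparse counts and are a description only. Set against genes of like mean level, Psat1 was the member spread most unevenly over stromal cells of both libraries, with a ratio of variance to mean of 1.25 and 1.28, above 92.4% and 92.9% of such genes in Tom+ and Tom-. Ddit3 had a ratio of 1.22 in both. Among 6788 genes, those with the highest mean correlation over the 4 groups included Egr1 (0.16), Ddx5 (0.12) and Nr4a1 (0.12) for Atf4. Jun (0.10) was among them for Ddit3, Ciapin1, Jchain and Ighm (0.07 each) for Asns, and Igf1 (0.14) and Dbi (0.11) for Psat1. Jchain and Ighm are markers of the cells rich in immunoglobulin, whose part in these correlations was not tested. For Igf1 and Dbi the values were 0.19 and 0.19 in Tom+ stromal and 0.18 and 0.17 in Tom- stromal cells. In mesothelial cells they were 0.21 and 0.08 in Tom+ (250 cells) and -0.01 and 0.02 in Tom-. Several of the genes most like Atf4 are immediate early genes, which also respond to enzymatic dissociation of tissue, whose part was not tested.

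The rest of the pathway was taken from lists of related genes, leaving the 9 members out, and counted by the same 1.5-fold limit. All list counts and levels include the cells rich in immunoglobulin, whose part in them was not tested. The genes named are those with a mean of 20 CPM or more over the groups compared, and a few that are named below that level were chosen after their values had been seen. In stromal cells of Tom+ over Tom-, 1 of 6 other serine and glycine genes (Gldc, 6.77 against 4.27 CPM), 0 of 14 folate genes, 0 of 16 genes of eIF2 control and 2 of 22 other ATF4 targets were higher, and 0 genes of these 4 lists were lower. The higher targets were Vldlr, a lipoprotein receptor (180 against 111 CPM), and Gdf15, a stress-induced hormone (33.0 against 20.5). Of 20 cytosolic tRNA synthetases 0 were higher and 1 lower (Eprs, 208 against 330), and of 10 amino acid transporters 1 was higher (Slc36a1, 16.6 against 10.8) and 0 lower. Of 11 further genes from a list of C/EBP and Tribbles genes and partner factors, 0 were higher and 2 lower. The lower ones were Cebpb, an early adipogenic factor (1644 against 3019), and Trib1 (184 against 286). The partner factors include Atf1, Atf2, Nfe2l1, Nfe2l2, Jun and Fos, and the last 2 are also among the genes induced by dissociation. The median log2 ratio of these 7 lists lay between -0.19 and 0.06, and that of all genes was 0.07. Of all genes 3.86% were higher and 3.25% lower by at least 1.5-fold. Of 20 genes of the ATF6 and XBP1 branches of the unfolded protein response, 1 was higher (Sel1l) and 0 lower, with a median of 0.09, and of 10 mitochondrial stress genes 0 passed the limit. Of 18 genes induced by dissociation, 0 were higher and 4 lower in Tom+ (Ier3, Nr4a1, Hspa1a and Socs3), with a median of -0.28, and their part in the Atf4 values was not tested.

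More genes of these lists were past the limit between the cell classes, where more of all genes were too. Of all genes 22.6% were higher and 16.2% lower in mesothelial cells of Tom+, and 21% and 13.9% in Tom-. In mesothelial over stromal cells, 6 of 17 folate genes were higher and 0 lower in Tom+, and 6 of 16 higher and 2 lower (Aldh1l1 and Mat2a) in Tom-, led by Ahcy, which clears S-adenosylhomocysteine (log2 3.54 and 3.36), and the folate receptor Folr1 (90.9 against 0.96 CPM in Tom+ and 94.6 against 1.80 in Tom-). Mthfd1, the cytosolic enzyme that completes the folate cycle, was at 13.2 against 8.36 and 17.9 against 9.48. Among 23 other ATF4 targets, 6 were higher and 7 lower in Tom+ and 6 higher and 4 lower in Tom-, with Atf3 (1.79 and 1.53) and Hmox1 (3.14 and 2.56) among the higher and Vldlr (-3.77 and -3.01) among the lower. Of 11 transporters, 3 were higher and 3 lower in Tom+ and 2 and 2 in Tom-, with Slc38a1, which imports glutamine, among the higher (5.11 and 4.58). The medians of these 3 lists were 0.31, 0.15 and -0.32 in Tom+ and 0.19, 0.10 and -0.16 in Tom-, beside 0.11 and 0.14 for all genes. Of 5 other serine and glycine genes 2 were higher in Tom+ (Sfxn3, a mitochondrial serine carrier, and Gcsh) and 1 in Tom- (Sfxn3, 94.1 against 39.2), and 0 lower. Of 16 genes of eIF2 control 3 were higher and 2 lower in Tom+ and 2 higher and 0 lower in Tom-, including the kinase Eif2ak2 (1.14 and 1.22). In both libraries 1 of 20 tRNA synthetases was higher (Rars) and 1 lower (Eprs). Of 11 C/EBP, Tribbles and partner genes 1 was higher (Trib1) and 3 lower in both, among them Cebpa (-2.39 and -2.96), a driver of adipocyte differentiation. Of 20 ATF6 and XBP1 genes 5 were higher and 4 lower in Tom+ and 3 and 2 in Tom-, of 10 mitochondrial stress genes 1 (Oma1) and 1 (Atf5) in both, and of 18 genes induced by dissociation 6 and 4 in Tom+ and 3 and 4 in Tom-.

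Between the libraries in mesothelial cells, few genes of these lists were past 1.5-fold, beside 1.87% of all genes higher and 1.16% lower. The 1 of 16 folate genes past the limit was Folr2, a receptor also known from macrophages, at 40.8 against 0.77, where the summed immune markers were at 64.2 against 13.3 CPM. The part of such cells in that value was not tested. Of 23 other ATF4 targets 2 were higher (Sesn2 and Gdf15) and 1 lower (Cth), and of 11 transporters 1 was higher (Slc36a1). None of the 5 serine and glycine, 16 eIF2, 20 tRNA synthetase, 20 ATF6 and XBP1, 10 mitochondrial stress, 11 C/EBP, Tribbles and partner, and 18 dissociation genes was past it. Their medians were from -0.14 to 0.04, where that of all genes was 0.03.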

How the data were processed

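Gonadal adipose CD31- CD45- cells were sorted by tomato signal into 1 Tom+ and 1 Tom- library. The authors made the deposited UMI counts with Cell Ranger 3.0.2 on mm10, per the submitters' processing notes, and the deposited matrices hold raw counts per gene and barcode. Cells were kept by the study's thresholds (more than 1000 and fewer than 7000 genes, under 8% mitochondrial UMIs) and classed by the summed UMIs of 5 mesothelial genes. The members and the 22 gene lists were chosen with earlier results of these data known.

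UMIs were summed per library and class and divided by the class total. Ratios were compared over genes with a mean of 5 CPM or more over both groups. Intervals were exact Poisson for levels, exact binomial for ratios of counts and a normal approximation for the difference of log2 ratios. The text names all 9 members, and of each list up to 6 genes past 1.5-fold with a mean of 20 CPM. It also names paralogs and some of the genes most correlated with Atf4, Asns, Ddit3 and Psat1. Doublets were marked with Scrublet per library (2 Tom+ and 122 Tom- cells, so almost none in Tom+) and kept, and leaving them out was an alternative. For shares and correlations, cells were thinned to 5000 UMIs, leaving out 126 and 302 shallower cells. The summed CPM of the marker lists in Tom+ and Tom- stromal cells were 76.7 and 50.9 (immune), 70.8 and 62.1 (endothelial), 81.9 and 74.2 (mural), 8.55 and 18.8 (Schwann and neural), 3.74 and 5.18 (adipocyte), 29967 and 31304 (stromal progenitor), 200.1 and 288 (Dpp4 and Pi16), 916 and 938 (Pparg, Lpl and Car3), 466 and 293 (reporter, Cdkn2a and Cdkn1a), 6.63 and 27.3 (the mesothelial gate) and 195 and 303 (other mesothelial). Of the reporter, Cdkn2a and Cdkn1a, only the reporter was higher in Tom+ than in Tom- stromal cells.

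The work was done in Python 3.11.15, with scanpy 1.11.5 for Scrublet, scipy 1.17.1 for intervals, anndata 0.12.19, pandas 2.3.3 and numpy 2.4.6 for tables and matplotlib 3.10.9 for plots. The ratio step was tested on simulated data.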

Additional observations from a re-analysis of the deposited data

How the results depend on the processing

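Each value was recomputed under 13 other settings, of which 2 were added after the data had been seen. They changed the mitochondrial limit, the gates, the minimum level, the scaling, the weight of cells, thinning, doublets, shared barcodes, tdTomato-positive cells and cells rich in immunoglobulin. Of 522 log2 alternatives, 485 kept their sign and 0 values past 1.5-fold changed sign. Of 116 counts, 97 were within 1.5 times the main count.

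The counts of members past 1.5-fold that moved beyond 1.5 times the main count were these. Smaller moves are not listed. Among them, Trib3 (log2 -1.24) joins the lower members in mesothelial over stromal cells of Tom+ at a minimum of 1 CPM. Tom+ over Tom- in stromal cells had 1 lower with a mitochondrial share under 5% and 1 higher in tdTomato-positive cells (both 0 in the main setting). Over all cells there was 1 lower without shared barcodes and 1 higher in tdTomato-positive cells (both 0). In mesothelial cells the 2 lower members became 0 with equal cell weights, and 1 without shared barcodes or in tdTomato-positive cells. In mesothelial over stromal cells of Tom+ the 0 higher members became 3 with thinning, and 1 with the mitochondrial limit, a gate of 20 UMIs, no shared barcodes or no cells rich in immunoglobulin, while the 2 lower became 1 with equal weights, thinning or no shared barcodes. In Tom- the 2 higher became 0 with median-of-ratios scaling, and the 1 lower became 2 with thinning, a minimum of 1 CPM or none. Across settings, 2.67% to 14.2% of genes were higher and 2.66% to 11.4% lower in Tom+ than in Tom- stromal cells. Over all cells these shares were 2.84% to 16.7% and 6.40% to 16.1%, and in mesothelial cells 1.64% to 13.9% and 0.721% to 6.16%. In mesothelial over stromal cells, 18.9% to 31.6% of genes were higher and 13.4% to 20.3% lower in Tom+. In Tom- they were 16.8% to 28.7% and 13.8% to 20.5%.

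No paired analysis was possible because each group had 1 library and no test was made. Depth limits Trib3 everywhere and the Tom+ mesothelial values of Asns, Psat1, Psph, Shmt2 and Mthfd2, which rest on 25 to 64 UMIs. It also limits the members at low levels, among them Asns, Shmt2 and Mthfd2, in the sets split by tdTomato.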
